A study of Mus musculus with 21 samples.

Results

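Bone morphogenetic protein (BMP) signalling was followed through 10 genes in sorted mouse intestinal Lgr5 cells: the receptors Bmpr1a and Bmpr2, the signal carriers Smad1, Smad5 and Smad4, the inhibitory Smad6 and Smad7, and the target genes Id1, Id2 and Id3. The genes were taken by symbol from the deposited TPM table and matched to the count table by Ensembl identifier. All 10 symbols matched 1 identifier each, out of 37310 genes in the tables, and all 10 passed the filter on low counts.

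BMP ligands bring type I receptors such as Bmpr1a together with type II receptors such as Bmpr2, and the type I receptor then phosphorylates Smad1 and Smad5. These join Smad4, which is shared with TGF-beta signalling, and enter the nucleus, where Id1, Id2, Id3, Smad6 and Smad7 are among the genes they switch on. Smad6 and Smad7 act back on the receptors as inhibitors, and Id proteins bind E proteins and keep them from DNA. In the intestine, BMP signalling is low at the crypt base, where Lgr5 stem cells sit among antagonists, and rises towards the villus, where it accompanies differentiation and restrains growth.

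The series holds 21 bulk RNA-seq libraries, 3 in each of 7 groups. All mice were of the strain Lgr5EGFPcre-ERT2, were kept on a purified diet from weaning and were 3 months old, and the 2-3% of cells with the highest Lgr5 fluorescence were sorted from dispersed crypts. The AIN group received the diet AIN76A, and NWD1 and NWD2 received diets of those names, whose makeup the labels do not give. The NWD1Ca diet is labelled as NWD1 plus 7.0 mg/g calcium, NWD1VitD as NWD1 plus 2.3 IU/g vitamin D, and AINlowVitD as AIN with 0.11 IU/g vitamin D. The AIN_VdrKO group carried a vitamin D receptor knockout on the AIN76A diet, and the labels do not say which part of Vdr is deleted or in which cells. The labels give the mice no numbers, so p-values measure the spread between these libraries. Sexes were mixed in 5 groups, while all 3 NWD1Ca libraries were from females and all 3 AIN_VdrKO libraries were from males.

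The libraries held 19889795 to 115435120 counts in genes. They fell apart along the first principal component of log2 CPM (each count divided by the TMM-scaled library size and scaled up), which held 43.9% of the variance. The first set, meaning the 9 libraries of the groups AIN, NWD1 and NWD2, lay at -104.3 to -38.6, with AIN 1, AIN 2 and NWD1 1 apart from the other 6. The 9 libraries of NWD1Ca, NWD1VitD and AINlowVitD, the second set, lay at 71.2 to 79.2, and those labelled AIN_VdrKO at -21.9 to 43.8. The share of mitochondrial ribosomal RNA among gene counts separated the sets too, with 0.965% at most in the first, 2.95% to 5.07% in the second and 1.38% to 2.80% in AIN_VdrKO. Added control RNA (ERCC spike-ins) made up 24.7% and 20.4% of all counts in NWD1 1 and NWD1 2, and 6.48% at most in any other library. NWD1 2 also had the fewest genes detected, 17764. The part of these features in differences from NWD1 was not tested. Set and diet cannot be told apart in any comparison that crosses the sets. The AIN_VdrKO libraries lay apart from both sets, so genotype and this difference between libraries cannot be told apart either.

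Lgr5 was detected in every library, at 9.49 to 87.2 CPM, but markers of differentiated cells were abundant as well. The first set summed to 2245 to 26133 CPM over 15 enterocyte markers, the second to 20367 to 66738 and AIN_VdrKO to 9037 to 16714. Over 15 Lgr5 stem cell markers the sums were 2583 to 11666 CPM, 1250 to 3636 CPM and 4282 to 7267 CPM in the same order. Summed goblet and enteroendocrine markers separated the sets, with goblet sums of 9657 to 32345 CPM in the first and 42646 to 95214 CPM in the second, and enteroendocrine sums of 421.7 to 2635 CPM and 3302 to 7504 CPM. In AIN_VdrKO these sums were 8223 to 18343 CPM and 816.4 to 1348 CPM. Single markers did not all move with the sums. In NWD1Ca against NWD1, edgeR called 2 of 9 goblet markers higher and 1, Spdef, lower. Of 12 enteroendocrine markers it called 3 higher and 1, Neurog3, lower. The part of these markers in the member differences between the sets was not tested. Of 10 fibroblast and muscle markers, 9 were at 0 in 12 or more libraries, and their sum was 0.393 CPM at most in the other 18 libraries and 1.45 to 3.31 CPM in AIN_VdrKO. Vdr read 338.2, 373.2 and 746.4 CPM in AIN and 297, 481.5 and 246.6 CPM in the libraries labelled AIN_VdrKO, a log2 fold change of -0.56 ± 0.37 (SE, n = 3 per group) with an adjusted p of 0.348 in edgeR's quasi-likelihood test. The ranges overlap, and since the deleted part is not named, whole-gene counts do not check that label.

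Per unit of length, the Id genes were the most abundant members and Bmpr2 and the inhibitory Smads the least. In AIN, Id2 had a mean of 196.3 TPM ± 26.5 (SD, n = 3), Id3 166.3 ± 39.6 and Id1 101.8 ± 11.4, and the ranges of Id2 and Id3 overlapped. Among the carriers Smad1 stood at 30.5 TPM ± 6.31, Smad4 at 19.4 ± 3.54 and Smad5 at 6.61 ± 4.15, and the receptor Bmpr1a lay between the last 2 at 13.1 ± 4.07, overlapping both. Smad7 at 1.77 TPM ± 0.26, Smad6 at 1.21 ± 0.256 and Bmpr2 at 1.09 ± 0.673 closed the order. The Id genes held the top 3 places by mean in 6 of the 7 groups. In AIN_VdrKO, Smad4 came first by mean at 95.6 TPM ± 50.5, but its range overlapped those of Id1, Id2 and Id3.

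**Figure D1:**
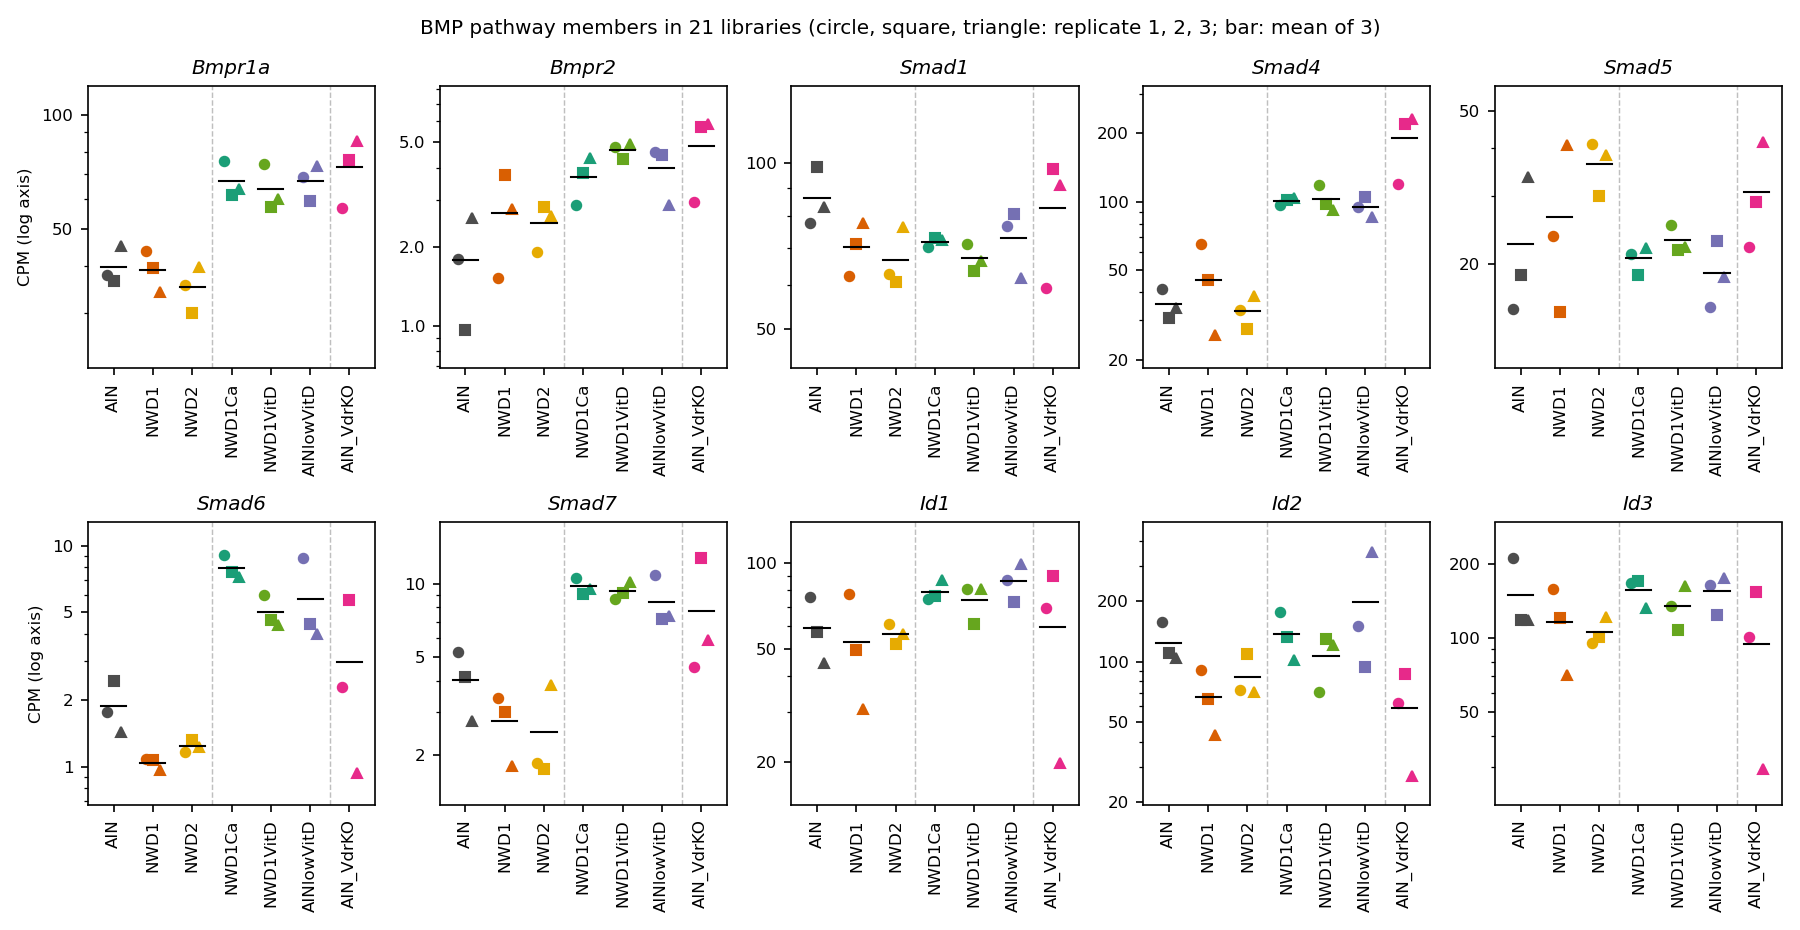
CPM of each member (log axis) in the 21 libraries, grouped by diet and genotype on the horizontal axis; circles, squares and triangles are replicates 1, 2 and 3, black bars are means of 3, and dashed lines part the first set, the second set and AIN_VdrKO. On this CPM scale Bmpr1a, Smad4, Smad6 and Smad7 lie higher in all 9 libraries of the second set than in all 9 of the first, which does not hold on the TPM scale. The share of all genes that part the sets in this way was not counted, so this is no result about the pathway. Smad1 stays between 59.2 and 98.4 CPM throughout.

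Members differed widely in how steady they were. Smad1 deviated from its mean over the 21 libraries by a root mean square of 0.21 on the log2 CPM scale, and only 0.4% of the 16050 tested genes deviated less. Smad6 deviated by 1.13, more than 83.7% of genes, and Smad4 by 0.927, more than 70.2%, against a median of 0.697 over all genes. Within groups the order changed: the pooled SD was 0.2 for Bmpr1a and 0.203 for Smad1, and it was largest for Id2 at 0.608. Bmpr1a and Smad4 thus varied mainly between groups, and Id1 and Id3 mainly between libraries of a group.

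By root mean square difference between centred log2 CPM profiles over the 21 libraries, Id1 and Id3 were each other's closest member at 0.264. The 3 genes outside the 10 nearest to Id1 were 0610011F06Rik at 0.262, 2210015D19Rik at 0.273 and Prelid2 at 0.293. Smad4 was nearest to Grsf1 at 0.211, Ppp2r5a at 0.284 and Ranbp9 at 0.285, and Bmpr1a to Pdzd8 at 0.16, Pkp4 at 0.19 and Cdc73 at 0.191. The nearest to Smad6 were Hmg20b at 0.443, Vps37d at 0.449 and Pink1 at 0.456. The measure is not scaled by a gene's own spread, so its values do not compare closeness between members. Profiles share the difference between the sets, so this order is a description.

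Within the first set, the question was whether NWD1 or NWD2 alters the pathway relative to AIN, and no member passed the test. In NWD1 against AIN 0 of 10 members were called where 0.766% of all genes were (0.106% higher and 0.66% lower), in NWD2 against AIN 0 where 0% were, and in NWD2 against NWD1 0 where 0.00623% were, by edgeR's quasi-likelihood test at an adjusted p under 0.05. At an unadjusted p under 0.05 there was 1 member in the first of these comparisons and 0 in the other 2, and limma on log2(TPM + 1) called 0 members in each, where it called 1.45%, 0% and 0.168% of all genes (1.15%, 0% and 0.0374% higher). DESeq2 called 0 in each as well. That 1 member was Id2, which read 157.2, 110.2 and 104.3 CPM in AIN and 91.6, 65.4 and 43.3 CPM in NWD1. The groups do not overlap, and the log2 fold change was -1.10 ± 0.46 with an edgeR adjusted p of 0.25. Without the filter on low counts, the same difference passed at an edgeR adjusted p of 0.0347. It was -0.72 (adjusted p 0.546) without AIN 1 and -0.63 (limma adjusted p 0.331) on log2(TPM + 1). Enterocyte markers moved the same way, with a summed 17559 to 23256 CPM in AIN and 2245 to 5617 CPM in NWD1, and their part in the Id2 difference was not tested.

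Other first-set differences did not pass either. Smad1 read 77.8, 98.4 and 83.0 CPM in AIN, just above the highest NWD1 and NWD2 libraries at 77.65 and 76.3 CPM (log2 fold changes -0.24 ± 0.21 and -0.32 ± 0.21, edgeR adjusted p 0.633 and 0.739). Smad6 read 1.77, 2.44 and 1.44 CPM in AIN, 1.08, 1.07 and 0.964 in NWD1 and 1.17, 1.32 and 1.22 in NWD2. Every NWD1 and NWD2 library lay under every AIN library, with log2 fold changes of -0.78 ± 0.49 (edgeR adjusted p 0.483) and -0.53 ± 0.48 (edgeR adjusted p 0.806). Smad5 was 0.69 ± 0.34 higher on the log2 scale in NWD2 than in AIN, with an edgeR adjusted p of 0.718, and passed (1.29, adjusted p 0.0445) when AIN 3 was left out. The value was 0.52 without AIN 1 and 0.05 (adjusted p 1) without AIN 1, AIN 2 and NWD1 1. The 95% intervals of these fits reach from -2.05 for Id2 in NWD1 to 1.44 for Bmpr2 in NWD1. Other members were bounded more tightly in NWD1 against AIN, such as Bmpr1a at -0.51 to 0.36 and Smad1 at -0.67 to 0.19. Differences inside a member's own interval were not resolved with 3 libraries a group.

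Within the second set, no member passed the test among NWD1Ca, NWD1VitD and AINlowVitD. AINlowVitD against NWD1Ca, NWD1VitD against NWD1Ca and NWD1VitD against AINlowVitD each gave 0 of 10 members called, where 0% of all genes were called by edgeR in each. No member reached an unadjusted p under 0.05 with edgeR, and limma on log2(TPM + 1) and DESeq2 also called 0. The largest value was that of Id2 in NWD1VitD against AINlowVitD, -0.90 ± 0.43 with an edgeR unadjusted p of 0.051. Smad6 did not overlap between NWD1VitD, at 6.01, 4.64 and 4.399 CPM, and NWD1Ca, at 9.11, 7.61 and 7.20 CPM, with a log2 fold change of -0.54 ± 0.51 (95% interval -1.61 to 0.54, edgeR adjusted p 1). The steadiest members were bounded most tightly. The 95% interval of Smad1 ran from -0.36 to 0.51 in AINlowVitD against NWD1Ca, and that of Bmpr1a from -0.55 to 0.32 in NWD1VitD against AINlowVitD.

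**Figure D2:**
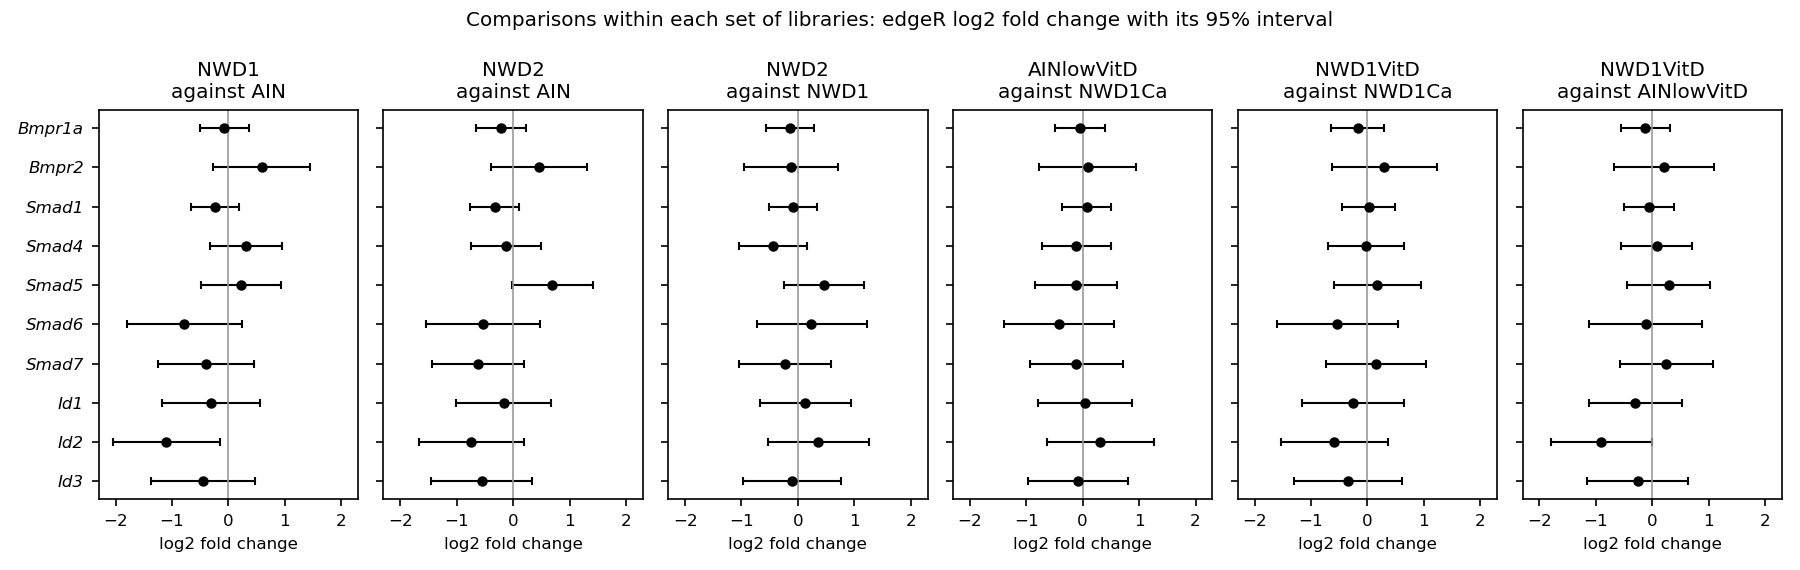
Fitted log2 fold change of each member (horizontal axis) in the 6 comparisons that stay within a set, with points for edgeR estimates and bars for 95% intervals. None of the 10 members was called in any of the 6 panels, and the interval of Id2 in NWD1 against AIN, from -2.05 to -0.14, is the only one that leaves 0 out.

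In the comparisons that cross the sets, members were called, and their direction depended on the scale. With edgeR on TMM-scaled counts, NWD1Ca against NWD1 gave 5 of 10 members higher, where 15.6% of all genes were called higher (30.5% in either direction). NWD1VitD against NWD1 gave 4 higher where 19.9% of genes were (40.5%), AINlowVitD against AIN gave 5 higher where 15.1% were (31.3%), and AIN_VdrKO against AIN gave 3 higher where 7.44% were (12.5%). No member was called lower in these 4, and AIN_VdrKO against AINlowVitD gave 1 member lower where 2.38% of genes were (3.07%). The first 2 of these comparisons share the NWD1 libraries and the next 2 the AIN libraries, so they do not repeat each other independently.

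On log2(TPM + 1), limma gave another split. NWD1Ca against NWD1 had 1 member higher and 2 lower (5.15% and 51.5% of all genes, 56.6% in all), NWD1VitD against NWD1 0 higher and 6 lower (4.36% and 60.3%, 64.7% in all), and AINlowVitD against AIN 0 higher and 3 lower (4.57% and 45.9%, 50.5% in all). AIN_VdrKO against AIN had 1 higher and 2 lower (4% and 4.41%), and AIN_VdrKO against AINlowVitD 4 higher and 1 lower (30.1% and 2.02%). The change of scale shifted the median gene by -1.15 in NWD1Ca against NWD1, -1.38 in NWD1VitD against NWD1, -0.96 in AINlowVitD against AIN, -0.23 in AIN_VdrKO against AIN and 0.74 in AIN_VdrKO against AINlowVitD, all in log2 units. The 10 most counted genes held 14.1% to 20.5% of gene counts in the second set, 5.33% to 8.37% in the first set and 8.62% to 13.5% in AIN_VdrKO. The part of these shares in the shift of the median gene was not tested. Because the median gene shifted, values on log2(TPM + 1) are set beside the median of all genes on that scale. Lower levels per cell and fewer cells of a type cannot be told apart in bulk RNA.

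**Figure D3:**
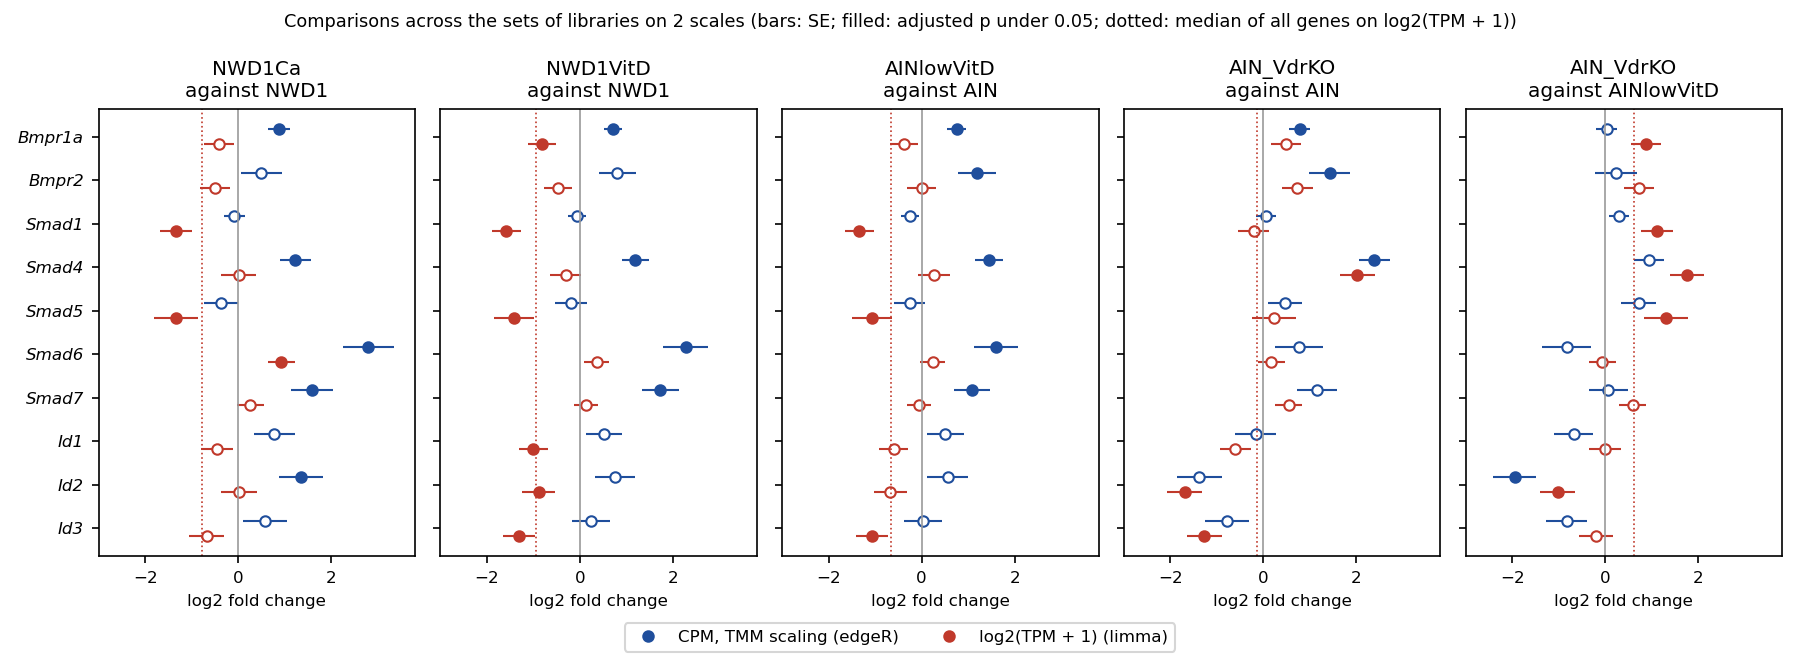
Log2 fold change of each member (horizontal axis) in the 5 comparisons across sets; blue points are edgeR estimates on TMM-scaled counts, red points limma estimates on log2(TPM + 1), bars are SE, filled points have an adjusted p under 0.05, and the dotted line is the median of all genes on log2(TPM + 1). In the first 3 panels red points lie to the left of blue ones for every member, and Smad4 in AIN_VdrKO against AIN is filled on both scales, at 2.38 and 2.02.

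Among the receptors, Bmpr1a (ENSMUSG00000021796.8), the type I receptor, was higher in CPM in the second set and in AIN_VdrKO than in the first set, while in TPM the ranges overlapped. It read 37.7, 36.5 and 45.15 CPM in AIN, 43.6, 39.5 and 34.0 in NWD1, and 35.5, 30.0 and 39.7 in NWD2. It read 75.5, 61.7 and 63.8 CPM in NWD1Ca, 74.2, 57.2 and 60.1 in NWD1VitD, 68.4, 59.3 and 73.3 in AINlowVitD, and 56.9, 76.0 and 85.2 in AIN_VdrKO. All 12 libraries of the last 4 groups lay above all 9 of the first 3. The edgeR log2 fold change was 0.88 ± 0.23 (adjusted p 0.00749) in NWD1Ca and 0.71 ± 0.20 (adjusted p 0.0101) in NWD1VitD against NWD1, and 0.75 ± 0.20 (adjusted p 0.00966) in AINlowVitD and 0.78 ± 0.22 (adjusted p 0.027) in AIN_VdrKO against AIN. On log2(TPM + 1) the same differences were -0.41, -0.82, -0.38 and 0.49, of which the second passed with limma (adjusted p 0.0215), and relative to the median gene they were 0.37, 0.12, 0.27 and 0.62. Each of the 4 calls of Bmpr1a was lost when low genes were not filtered out (adjusted p 0.0861, 0.134, 0.112 and 0.171). The call in NWD1Ca was lost without NWD1 3 (0.79, adjusted p 0.0573) and that in AIN_VdrKO without AIN 3, AIN_VdrKO 2 or AIN_VdrKO 3 (0.87, 0.75 and 0.65, adjusted p 0.0647, 0.0581 and 0.08). That in NWD1VitD was lost in an edgeR fit of the 2 groups alone (0.66, adjusted p 0.0582), and its value was 0.83 without NWD1 1 and NWD1 2. In AINlowVitD the value was 0.65 without AIN 1, AIN 2 and NWD1 1.

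Bmpr2 (ENSMUSG00000067336.4), the type II receptor, rested on few reads, 58 to 822 counts a library. It read 1.79, 0.961 and 2.57 CPM in AIN, 4.57, 4.48 and 2.88 in AINlowVitD, and 2.95, 5.70 and 5.85 in AIN_VdrKO. Every library of the latter 2 groups lay above every AIN library, the nearest pair being 2.88 and 2.57 CPM. Bmpr2 was 1.18 ± 0.41 higher on the log2 scale in AINlowVitD (edgeR adjusted p 0.0365) and 1.42 ± 0.43 higher in AIN_VdrKO (edgeR adjusted p 0.0373), while on log2(TPM + 1) the differences of 0.00 and 0.73 did not pass with limma (adjusted p 0.997 and 0.18). The first call of Bmpr2 was lost without AIN 2 (0.84, adjusted p 0.149), AINlowVitD 1 or AINlowVitD 2, and the second without AIN 1, AIN 2 (1.17, adjusted p 0.0773), AIN_VdrKO 2 or AIN_VdrKO 3.

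The receptor-activated Smads were not called in any comparison with edgeR. Smad1 (ENSMUSG00000031681.8) read 77.8, 98.4 and 83.0 CPM in AIN, 62.4, 71.1 and 77.7 in NWD1, and 62.8, 60.7 and 76.3 in NWD2. In the second set it stayed between 61.9 and 80.8 CPM, and in AIN_VdrKO it read 59.2, 97.4 and 91.2. Its edgeR log2 fold changes across the sets ran from -0.25 ± 0.20 in AINlowVitD against AIN to 0.30 ± 0.22 in AIN_VdrKO against AINlowVitD. In TPM, Smad1 was 23.5 to 44.1 in the first set and 9.23 to 13.98 in the second, with no overlap, and on log2(TPM + 1) it was lower by limma in NWD1Ca and NWD1VitD against NWD1 (-1.33 and -1.58) and in AINlowVitD against AIN (-1.34). Relative to the median gene those values were -0.54, -0.63 and -0.68.

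Smad5 (ENSMUSG00000021540.9), a close relative of Smad1, was less steady. It read 15.3, 18.8 and 33.7 CPM in AIN, 23.6, 15.1 and 40.7 in NWD1, and 40.9, 30.0 and 38.3 in NWD2. In the second set it stayed between 15.5 and 25.3 CPM, and in AIN_VdrKO it read 22.1, 29.0 and 41.4. AIN 3 and NWD1 3 each lay far above the other 2 libraries of their group, which set the sign of several fits: the edgeR value in NWD1Ca against NWD1 was -0.37 ± 0.36 (adjusted p 0.454), and 0.35 without NWD1 3. On log2(TPM + 1) Smad5 was lower by limma in NWD1Ca and NWD1VitD against NWD1 (-1.34 and -1.41) and in AINlowVitD against AIN (-1.07), and relative to the median gene it was -0.55, -0.46 and -0.42.

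Smad4 (ENSMUSG00000024515.7), the common partner, was highest in the libraries labelled AIN_VdrKO, on both scales. It read 41.1, 30.6 and 34.0 CPM in AIN, 64.8, 45.2 and 25.7 in NWD1, and 33.2, 27.4 and 38.3 in NWD2. In the second set it read 97.0, 102.0 and 103.9 CPM in NWD1Ca, 118.4, 98.1 and 91.8 in NWD1VitD, and 94.8, 104.8 and 85.8 in AINlowVitD. AIN_VdrKO gave 120.0, 220.0 and 231.4 CPM, each above the highest of the other 18 libraries, though the lowest of the 3 by little. In TPM the 3 AIN_VdrKO libraries held 44.3, 97.3 and 145.2, and the highest of the other 18 held 38.7.

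Against AIN, Smad4 in AIN_VdrKO rose by 2.38 ± 0.33 on the log2 scale, from a mean of 35.2 to 190.5 CPM, with an edgeR adjusted p of 0.000196. On log2(TPM + 1) the rise was 2.02 ± 0.37 with a limma adjusted p of 0.00283, or 2.15 relative to the median gene. Leaving out any 1 of the 6 libraries left it between 2.21 and 2.62 and called, and leaving out AIN 1, AIN 2 and NWD1 1 together left 2.42 (adjusted p 0.000677). A fit of the 6 libraries alone gave 2.53 ± 0.56 with an adjusted p of 0.0543. Against AINlowVitD the difference of 0.94 ± 0.33 did not pass with edgeR (adjusted p 0.118), and on log2(TPM + 1) it was 1.76 ± 0.37 with a limma adjusted p of 0.0133. Without AIN_VdrKO 1 the edgeR value against AINlowVitD was 1.19 (adjusted p 0.0209), and without the term for sex it was 1.00 (adjusted p 0.0361). Fibroblast and muscle markers moved with this rise, their sum being 1.45 to 3.31 CPM in AIN_VdrKO against 0.393 CPM at most elsewhere, and Acta2 among them was higher than in AIN by 3.08 ± 0.91 (edgeR adjusted p 0.0312) and by 0.79 on log2(TPM + 1) (limma adjusted p 0.00394). Their part in the Smad4 difference was not tested, and genotype cannot be told apart from the difference between these libraries and the first set. No member lies on the chromosome of Vdr in RefSeq GRCm38.p6.

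Smad4 was also higher in CPM in the second set, by a size that depended on the scale, and in NWD1VitD the sign turned on log2(TPM + 1) (-0.31). The edgeR log2 fold change was 1.23 ± 0.34 (adjusted p 0.0107) in NWD1Ca against NWD1, 1.19 ± 0.29 (adjusted p 0.00379) in NWD1VitD against NWD1 and 1.44 ± 0.30 (adjusted p 0.00174) in AINlowVitD against AIN, whereas on log2(TPM + 1) it was 0.01, -0.31 and 0.26, none past the threshold in limma (adjusted p 0.978, 0.434 and 0.547). Relative to the median gene the TPM values of Smad4 were 0.80, 0.63 and 0.91. The call in NWD1Ca was lost without NWD1 3, where the value was 0.74 with an adjusted p of 0.131, and the other 2 calls were kept when any single library was left out.

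The inhibitory Smads showed the largest edgeR fold changes of the members in NWD1Ca and NWD1VitD against NWD1. Smad6 (ENSMUSG00000036867.5), which blocks receptor-activated Smads of the BMP branch, has its upstream window in RefSeq on GRCm38.p6 at chr9:64022060-64022309, minus strand. It is printed because Smad6 had the largest edgeR fold change of a member (2.80 in NWD1Ca against NWD1, though 0.92 on log2(TPM + 1), where others were larger) and is itself a known target of the pathway. Capitals mark GTCT, the core letters of a Smad-binding element, and none of its 250 bases lies in an annotated exon of Smad6.
Smad6 upstream window: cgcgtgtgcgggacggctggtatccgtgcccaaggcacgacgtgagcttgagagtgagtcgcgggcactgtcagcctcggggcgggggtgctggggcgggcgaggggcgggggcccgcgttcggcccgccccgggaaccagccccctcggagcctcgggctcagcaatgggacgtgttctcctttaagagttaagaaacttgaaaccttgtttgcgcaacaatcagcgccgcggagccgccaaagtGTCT
The motifs searched, on both strands, were GTCT, the same letters doubled as the palindrome GTCTAGAC, which contains GTCT, and the GC-rich palindrome GGCGCC. The window held 1 GTCT and neither of the others. GTCT is short and was present in 82.9% of 32851 RefSeq windows of this length, GGCGCC in 9.6% and GTCTAGAC in 0.2%, so the match is a description of the sequence alone.

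Smad6 read 1.77, 2.44 and 1.44 CPM in AIN, 1.08, 1.07 and 0.964 in NWD1, and 1.17, 1.32 and 1.22 in NWD2. It read 9.11, 7.61 and 7.20 CPM in NWD1Ca, 6.01, 4.64 and 4.399 in NWD1VitD, and 8.83, 4.42 and 3.99 in AINlowVitD. The second set did not overlap the first in CPM, on 40 to 276 counts a library, while in TPM the ranges of 0.766 to 1.49 and 1.11 to 3.07 did overlap. AIN_VdrKO spread over nearly the whole range, at 2.30, 5.70 and 0.939 CPM, and differed from AIN by 0.77 ± 0.52 (edgeR adjusted p 0.36).

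Against NWD1, the edgeR log2 fold change of Smad6 was 2.80 ± 0.54 (adjusted p 0.0012) in NWD1Ca and 2.27 ± 0.48 (adjusted p 0.00133) in NWD1VitD, and both calls were kept when any single library was left out. In limma on log2(TPM + 1) the first was 0.92 ± 0.29 and passed (adjusted p 0.0124), and the second was 0.36 ± 0.27 and did not (adjusted p 0.246), with 1.70 and 1.31 relative to the median gene. This made Smad6 in NWD1Ca the only member called higher on both scales in a comparison of the second set with the first. In AINlowVitD against AIN, Smad6 was 1.60 ± 0.47 higher with edgeR (adjusted p 0.0144) and 0.24 on log2(TPM + 1) (limma adjusted p 0.48). That call was lost without AIN 3 (1.47, adjusted p 0.0632) or AINlowVitD 1 (1.17, adjusted p 0.102). The sum of 13 dissociation stress genes was 1394 CPM in NWD1Ca 2 and 634 CPM in AINlowVitD 3, against 174 to 343 CPM in the other 19 libraries. The part of these stress genes in the Smad6 differences was not tested.

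Smad7 (ENSMUSG00000025880.5), which inhibits both the BMP and the TGF-beta branch, followed a similar course. It read 5.24, 4.16 and 2.74 CPM in AIN, 3.42, 3.00 and 1.81 in NWD1, and 1.87, 1.75 and 3.86 in NWD2. The 9 libraries of the second set lay between 7.14 and 10.8 CPM, above all of the first set, and AIN_VdrKO gave 4.56, 12.7 and 5.87. The edgeR log2 fold change was 1.58 ± 0.45 (adjusted p 0.0127) in NWD1Ca and 1.73 ± 0.39 (adjusted p 0.00217) in NWD1VitD against NWD1 and 1.08 ± 0.39 (adjusted p 0.0393) in AINlowVitD against AIN, whereas limma on log2(TPM + 1) gave 0.26, 0.13 and -0.05, none past the threshold. Relative to the median gene the TPM values were 1.04, 1.08 and 0.60. The first call was lost without NWD1 3 (1.05, adjusted p 0.128) and the third without AIN 2, AIN 3 (0.90, adjusted p 0.155), AINlowVitD 1 or AINlowVitD 3, while the second was kept when any single library was left out. In AIN_VdrKO against AIN, the difference of 1.15 ± 0.43 did not pass with edgeR (adjusted p 0.0885).

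The Id genes report BMP activity in many cells, and Id1 and Id3 varied mostly from library to library. Id1 (ENSMUSG00000042745.9) read 76.0, 57.3 and 44.4 CPM in AIN, 77.6, 49.2 and 30.8 in NWD1, and 61.1, 51.7 and 56.2 in NWD2. In the second set it lay between 61.1 and 98.9 CPM, and in AIN_VdrKO at 69.2, 89.9 and 19.8. Id1 passed in no comparison with edgeR, the largest value being 0.78 ± 0.44 in NWD1Ca against NWD1 (adjusted p 0.188), and on log2(TPM + 1) it was lower in NWD1VitD against NWD1 (-1.00, limma adjusted p 0.00951), at -0.05 relative to the median gene and 0.52 with edgeR.

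Id3 (ENSMUSG00000007872.3) read 210.6, 118.8 and 118.6 CPM in AIN, 158.6, 120.1 and 70.7 in NWD1, and 95.1, 100.8 and 121.5 in NWD2. In the second set it lay between 108.2 and 175.7 CPM, and in AIN_VdrKO at 100.5, 153.3 and 29.3. It too passed in no comparison with edgeR. In TPM the first set held 127.2 to 206.4 and the second 54.0 to 106.4 with no overlap, and limma on log2(TPM + 1) called Id3 lower in NWD1VitD against NWD1 (-1.31), in AINlowVitD against AIN (-1.07) and in AIN_VdrKO against AIN (-1.27, adjusted p 0.0403). The edgeR values for these were 0.23, 0.03 and -0.79, and relative to the median gene the TPM values were -0.37, -0.42 and -1.14. AIN_VdrKO 3 held the lowest CPM of all 21 libraries for each of Id1, Id2 and Id3, as well as for Smad6, and the highest for Bmpr1a, Bmpr2, Smad4 and Smad5. It held 115435120 gene counts, against 24745820 in AIN_VdrKO 1 and 22562419 in AIN_VdrKO 2. On the first principal component it lay at -21.9, against 43.8 and 3.8 for those libraries. The part of these features in its levels was not tested.

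Id2 (ENSMUSG00000020644.8) was the only one of Id1, Id2 and Id3 called by edgeR. It read 177.8, 132.8 and 102.4 CPM in NWD1Ca, 70.9, 129.3 and 121.6 in NWD1VitD, and 150.8, 94.1 and 352.8 in AINlowVitD. AIN_VdrKO gave 62.4, 87.2 and 27.2 CPM, below every AINlowVitD and AIN library. Against AINlowVitD, Id2 in AIN_VdrKO was lower by edgeR, with a log2 fold change of -1.94 ± 0.46 and an adjusted p of 0.0259, and by limma on log2(TPM + 1), with -1.02 ± 0.38 and an adjusted p of 0.0496 (-1.65 relative to the median gene). The call rested on AINlowVitD 3, without which the value was -1.14 (adjusted p 0.414), and on AIN_VdrKO 3, without which it was -1.60 (adjusted p 0.133). AINlowVitD 3 also held the highest sum of enterocyte markers of all libraries, 66738 CPM, and the second highest sum of stress genes, and the part of either in its Id2 level was not tested.

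Against AIN, the Id2 difference in AIN_VdrKO was -1.38 ± 0.48 and did not pass with edgeR (adjusted p 0.0686), but passed with DESeq2 (-1.40, adjusted p 0.0305) and with limma on log2(TPM + 1) (-1.69, adjusted p 0.0109, or -1.56 relative to the median gene). In NWD1Ca against NWD1, Id2 was higher by 1.35 ± 0.48 with edgeR (adjusted p 0.0407), and by 0.02 with limma on log2(TPM + 1) (adjusted p 0.974; 0.80 relative to the median gene). That call was lost without NWD1 2, NWD1 3 (1.11, adjusted p 0.2), NWD1Ca 1 or NWD1Ca 2, and without the term for sex (1.04, adjusted p 0.0667). Summed enterocyte markers rose alongside, from 2245 to 5617 CPM in NWD1 to 20367 to 38577 CPM in NWD1Ca, and their part in this difference was not tested.

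**Figure D4:**
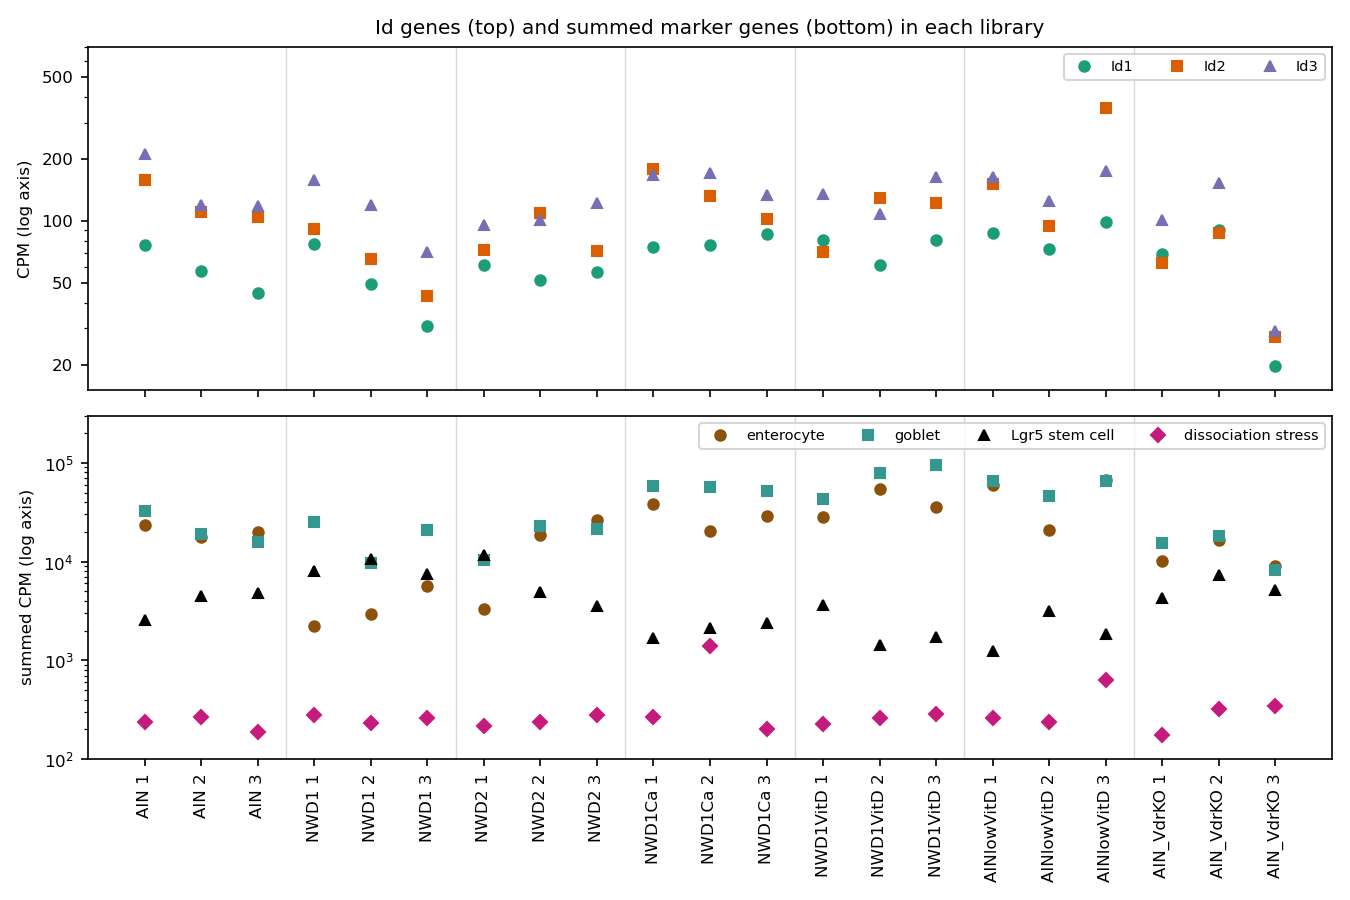
Top, CPM of Id1, Id2 and Id3 in each of the 21 libraries (log axis); bottom, summed CPM of enterocyte, goblet, Lgr5 stem cell and dissociation stress markers in the same libraries (log axis). Id2 reaches 352.8 CPM in AINlowVitD 3, where the enterocyte sum is also highest at 66738, and all 3 Id genes are lowest in AIN_VdrKO 3, at 19.8, 27.2 and 29.3 CPM.

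The other genes of the pathway were counted in 7 lists, of ligands, antagonists, other receptors, Smad regulators, other target genes, the TGF-beta branch and E proteins, with 68 genes in the tables and 42 of them tested. In the 6 comparisons within sets 1 of the 42 was called by edgeR, in NWD1 against AIN, where 0.766% of all genes were. This was Atoh8, a transcription factor induced by BMP signals in other tissues, which read 0.897, 1.81 and 1.16 CPM in AIN and 10.7, 18.8 and 7.06 in NWD1. Every NWD1 library lay above every AIN library, with a log2 fold change of 2.98 ± 0.53 (edgeR adjusted p 0.0209) and 2.65 on log2(TPM + 1) (limma adjusted p 0.000931). The edgeR call was lost without AIN 1, AIN 3 or NWD1 2 (adjusted p 0.0748, 0.0591 and 0.0915). Atoh8 was lower in NWD1Ca (-2.65 ± 0.55, edgeR adjusted p 0.00208) and NWD1VitD (-1.82 ± 0.48, edgeR adjusted p 0.00623) than in the same NWD1 libraries, on log2(TPM + 1) too (-2.86 and -2.65). The second of these was -1.29 without NWD1 1 and NWD1 2, the libraries with the highest Atoh8 and the highest spike-in shares, which left 1 NWD1 library. A fit of the AIN and NWD1 libraries alone gave 3.04 (adjusted p 0.12). Id4, a further Id gene, was higher with edgeR in NWD1VitD than in NWD1, at a mean of 7.66 against 2.53 CPM (1.59 ± 0.56, adjusted p 0.03), with 0.07 on log2(TPM + 1) (limma adjusted p 0.882). That call of Id4 was lost without NWD1 2, NWD1 3, NWD1VitD 2 or NWD1VitD 3, with values down to 0.99.

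Across the sets, edgeR called 4 of the 42 genes higher and 2 lower in NWD1Ca against NWD1 (30.5% of all genes either way), 10 and 5 in NWD1VitD against NWD1 (40.5%), 3 and 2 in AINlowVitD against AIN (31.3%), 5 and 1 in AIN_VdrKO against AIN (12.5%), and 0 and 1 in AIN_VdrKO against AINlowVitD (3.07%). These counts are near or under the shares of all genes, so they are no result about the pathway. Among 12 Smad regulators, Ppm1a, a phosphatase that acts on Smads, was higher in the first 4 of these, at means of 91.5 against 23.3, 101.1 against 23.3, 105.1 against 37.15 and 101.6 against 37.15 CPM (edgeR adjusted p 0.000852, 6.54e-05, 0.00117 and 0.00404). On log2(TPM + 1) it was 0.55, 0.54, 0.35 and 1.26 higher, of which the last passed with limma (adjusted p 0.0281), and relative to the median gene it was 1.33, 1.48, 1.00 and 1.39. The first 9 libraries held 17.02 to 44.4 CPM of Ppm1a, the second set 83.1 to 119.2 CPM, and AIN_VdrKO 63.7, 123.4 and 117.7 CPM. Ski, Tob1 and Smurf1, which restrain Smad signalling by different routes, made up the other calls of this list, all higher with edgeR, none of them called on log2(TPM + 1), where Smurf1 in NWD1VitD (-0.16) and Ski in NWD1Ca, NWD1VitD and AINlowVitD (-0.22, -0.66 and -0.08) took the opposite sign. Relative to the median gene those values were 0.79 for Smurf1 and 0.56, 0.29 and 0.57 for Ski.

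Of 5 antagonists tested, Nbl1 was called higher by edgeR in NWD1Ca (2.55 ± 0.94, adjusted p 0.0463) and NWD1VitD (3.23 ± 0.94, adjusted p 0.0108) against NWD1 from a mean of 0.25 CPM. Neither call held on log2(TPM + 1) (0.36 and 0.45, limma adjusted p 0.365 and 0.203), and the first was also lost in 5 of the 6 fits that left out 1 library, the exception being that without NWD1 3, with the replicate block (2.64, adjusted p 0.05) and in a fit of the 2 groups alone (1.51, adjusted p 0.378). Twsg1, which binds BMP ligands outside the cell, was lower in the second set on both scales. Twsg1 read 54.3, 58.6 and 80.2 CPM in NWD1, 31.99, 32.6 and 32.1 in NWD1Ca, and 34.4, 30.8 and 29.4 in NWD1VitD, with no overlap. With edgeR it passed in NWD1Ca with a log2 fold change of -1.00 ± 0.28 (adjusted p 0.0111) and in NWD1VitD with -1.03 ± 0.26 (adjusted p 0.00435), both against NWD1, and with -0.94 ± 0.26 (adjusted p 0.0105) in AINlowVitD against AIN, while on log2(TPM + 1) it was -2.16, -2.45 and -1.89, or -1.38, -1.51 and -1.24 relative to the median gene. The first call was lost without NWD1 3 (-0.68, adjusted p 0.16) and the third without AIN 2 (-0.63, adjusted p 0.0698).

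Of 6 other receptors and co-receptors tested, Acvrl1 (ALK1), a type I receptor best known from endothelium, was nearly absent from the libraries labelled AIN_VdrKO. These held 5, 2 and 9 counts of it, or 0.202, 0.087 and 0.064 CPM, against 95, 145 and 125 counts, or 1.89, 1.53 and 2.68 CPM, in AIN. The fall was 3.97 ± 0.59 on the log2 scale against AIN (log2 fold change -3.97, edgeR adjusted p 0.0003) and -4.05 ± 0.61 against AINlowVitD (edgeR adjusted p 0.00196), and both calls were kept when any single library was left out. The second ended in a fit of its 6 libraries alone (-3.95, adjusted p 0.139). On log2(TPM + 1), where values this low are compressed, the differences were -0.75 and -0.34 and did not pass with limma (adjusted p 0.0607 and 0.268). Acvrl1 lies on the same chromosome as Vdr in RefSeq GRCm38.p6. So does Acvr1b, which read 4.77, 6.03 and 5.45 CPM in AIN and 4.60, 8.87 and 6.96 CPM in AIN_VdrKO. The part of this position in the Acvrl1 difference was not tested. The summed level of 8 endothelial markers, of which Acvrl1 is none, was 11.49 to 15.95 CPM in AIN and 10.4 to 20.99 CPM in AIN_VdrKO. Over all libraries Cdh5, Cldn5, Kdr and Tie1 reached 0.0151, 0.0226, 0.193 and 0.396 CPM at most. Esam held 3.22 to 18.7 CPM and Tek up to 19.45 CPM, so the sum is a poor measure of endothelial cells. Of the 8 markers 5 were tested, with a median edgeR log2 fold change of 0.29 in AIN_VdrKO against AIN. Only Tek was called among them, lower at a mean of 0.904 against 3.97 CPM (-2.21 ± 0.70, edgeR adjusted p 0.0451, and -1.06 on log2(TPM + 1), limma adjusted p 0.191). The part of endothelial cells in the Acvrl1 difference was not tested. Acvr2b, an activin type II receptor that also takes BMPs, read 2.03, 1.39 and 0.772 CPM in AIN and 6.42, 4.44 and 4.10 in AIN_VdrKO, 2.06 ± 0.44 higher (edgeR adjusted p 0.00522) and 1.32 higher on log2(TPM + 1) (limma adjusted p 0.0057). Without AIN 3 this edgeR value was 1.62 (adjusted p 0.0586). Acvr2b was also called higher by edgeR in AINlowVitD against AIN (1.48 ± 0.39, adjusted p 0.00782) and in NWD1VitD against NWD1 (0.99 ± 0.38, adjusted p 0.044), with 0.23 and -0.36 on log2(TPM + 1), neither past the threshold, or 0.88 and 0.58 relative to the median gene. The call in NWD1VitD was lost in 5 of 6 fits without 1 library. Rgmb, a BMP co-receptor, read 26.5, 42.4 and 26.2 CPM in AIN and 88.5, 100 and 89.6 in AIN_VdrKO, with no overlap. The edgeR call of Rgmb (1.23 ± 0.40, adjusted p 0.0478) was lost in 5 of 6 fits without 1 library, down to 0.80 without AIN 3, and on log2(TPM + 1) (1.03, limma adjusted p 0.124).

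Of 7 genes of the TGF-beta branch tested, Smad2, a receptor-activated Smad of that branch, was lower in part of the second set. It read 32.4, 43.97 and 34.5 CPM in NWD1 and 26.1, 18.1 and 19.6 CPM in NWD1VitD, without overlap, a log2 fold change of -0.80 ± 0.24 (edgeR adjusted p 0.0116) and of -2.20 on log2(TPM + 1) (-1.26 relative to the median gene). In AINlowVitD against AIN, Smad2 was at -0.71 ± 0.24 (edgeR adjusted p 0.0277) and -1.73 on log2(TPM + 1) (-1.08 relative to the median gene). The first Smad2 call was lost without NWD1 2, NWD1VitD 2 or NWD1VitD 3, and the second without AIN 1 (-0.49, adjusted p 0.142), AIN 3, AINlowVitD 1 or AINlowVitD 3. The type II receptor Tgfbr2 was lower in NWD1VitD than in NWD1 (-1.17 ± 0.43, edgeR adjusted p 0.037; -1.86 on log2(TPM + 1)), and without NWD1 3 it was -0.67 (adjusted p 0.253). Acvr1b, an activin type I receptor, was higher there with edgeR (0.89 ± 0.29, adjusted p 0.0202) and at -0.50 on log2(TPM + 1) (limma adjusted p 0.144), or 0.45 relative to the median gene. The Tgfbr2 call was also lost without NWD1 2, NWD1VitD 2 or NWD1VitD 3, and that of Acvr1b without NWD1 1, NWD1 3 or NWD1VitD 1.

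The ligands were unevenly expressed in the sorted cells. Bmp3 held 9.77 to 51.65 CPM, Bmp2 2.92 to 24.1 CPM and Bmp7 4.37 to 15.5 CPM. Of 13 ligand genes 6 passed the filter, their summed level was 24.6 to 70.9 CPM over the 21 libraries, and only NWD1VitD against NWD1 gave calls, with Bmp6 and Bmp8a higher and Bmp8b lower by edgeR on means of 2.69 CPM or less. Bmp6 and Bmp8a did not pass on log2(TPM + 1) (0.09 and 0.05, limma adjusted p 0.258 and 0.807) or with edgeR without NWD1VitD 3 (3.26 and 1.31, adjusted p 0.0646 and 0.068). Bmp8b passed on log2(TPM + 1) (-0.65, limma adjusted p 0.003; 0.30 relative to the median gene), but not with edgeR without NWD1VitD 1 (-2.37, adjusted p 0.0685) or NWD1VitD 2 (-2.65, adjusted p 0.0638). Of 3 E proteins, the partners of Id proteins, Tcf12 was higher in AIN_VdrKO against AIN by edgeR (0.84 ± 0.26, adjusted p 0.0366) and by 0.55 on log2(TPM + 1) without passing (limma adjusted p 0.402). That edgeR call was lost without AIN 1 (0.76, adjusted p 0.0558), AIN 3, AIN_VdrKO 2 or AIN_VdrKO 3 (0.70, adjusted p 0.105).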

How the data were processed

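Whole-number read counts and TPM values for 37310 genes were deposited by the authors, 1 column per library. The submitters' processing notes list STAR 2.4.2a, HTSeq 0.6.1, edgeR and mm9, without saying which annotation was counted. Per the labels' protocols, SMART-Seq v4 and Nextera XT were used; they do not mark strand, so overlapping antisense genes cannot be told apart. The deposited TPM values equal the deposited counts over a fixed gene length, rescaled by library.

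The test was the two-sided quasi-likelihood F test of edgeR 4.0.16 (R 4.3.3) on the counts without 92 ERCC spike-ins, with TMM scaling and filterByExpr (16050 genes kept). The 21 libraries entered 1 model of group means and sex, with Benjamini-Hochberg adjustment over all genes at 0.05. The SE is the size of the log2 fold change over the root of F. CPM is on TMM-scaled library sizes. Alternatives were DESeq2 1.42.0, limma 3.58.1 on log2(TPM + 1) and log2(TPM + 0.1), no filter, no sex term, the 2 groups alone, a length trend removed, a replicate block and leaving out libraries. Replicates differed by a chi-square of 51.68 or more per degree of freedom, so none repeated another within counting error, which does not show that they came from separate mice. Reads carried no molecular identifiers.

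The 10 members, the gene lists and the naming rule were chosen with earlier results of these data known. Named are the members, up to 4 called genes with the smallest p per pathway list and comparison, the 3 nearest profiles to a member, Lgr5 and Vdr. Some markers and ligands are named besides, where the sum of their list is given. RefSeq (GRCm38.p6) windows matched 7 of 10 members.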

Additional observations from a re-analysis of the deposited data

How the results depend on the processing

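Counts of members called by edgeR moved as follows. In NWD1 against AIN the count of 0 became 1 without the filter on low counts, and in NWD2 against AIN it ran from 0 to 1 when single libraries were left out. In NWD1Ca against NWD1 the count of 5 became 3 with limma on log2(TPM + 1) and 3 on log2(TPM + 0.1), 8 with the 2 groups alone, and 1 to 5 when single libraries were left out. In AINlowVitD against AIN the count of 5 became 2 without the filter, 3 and 3 with limma at the pseudocounts 1 and 0.1, 2 to 5 when single libraries were left out, and 1 without AIN 1, AIN 2 and NWD1 1. In AIN_VdrKO against AIN the count of 3 became 5 with DESeq2, 0 with the 2 groups alone, 1 to 4 when single libraries were left out, and 1 without AIN 1, AIN 2 and NWD1 1. In AIN_VdrKO against AINlowVitD the count of 1 became 2 without the sex term, 5 and 5 with limma, 0 with the 2 groups alone, and 0 to 2 when single libraries were left out. The 4 members called in NWD1VitD against NWD1 stayed 4 in number when single libraries were left out. Leaving out AIN 1, AIN 2 and NWD1 1, or NWD1 1 and NWD1 2, was chosen after seeing the data. The causes were not tested.

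Signs turned with limma on log2(TPM + 1) and log2(TPM + 0.1), in that order. In NWD1Ca against NWD1 they did so for Bmpr1a (-0.41, -0.43) and Ski (-0.22, -0.24). In NWD1VitD against NWD1 they did so for Bmpr1a (-0.82, -0.88), Smad4 (-0.31, -0.32), Id1 (-1.00, -1.01), Id2 (-0.89, -0.90), Id3 (-1.31, -1.33), Acvr2b (-0.36, -0.48), Ski (-0.66, -0.76), Smurf1 (-0.16, -0.19) and Acvr1b (-0.50, -0.67). In AINlowVitD against AIN they did so for Bmpr1a (-0.38, -0.41), Smad7 (-0.05, -0.08), Id3 (-1.07, -1.08) and Ski (-0.08, -0.09). Relative to the median gene on log2(TPM + 1), the turned sign remained only for Id1 and Id3 in NWD1VitD against NWD1 (-0.05 and -0.37) and Id3 in AINlowVitD against AIN (-0.42). Values near 0 turned under other settings. Smad1 in NWD1Ca against NWD1 was 0.03 without the sex term and 0.08 with the length trend removed, and in NWD1VitD against NWD1 it was 0.08 with the length trend removed and -0.14 to 0.05 when single libraries were left out, the latter without NWD1VitD 2. When single libraries were left out, Smad5 ran from -0.60 to 0.35 in NWD1Ca and from -0.51 to 0.34 in NWD1VitD against NWD1, and Id3 from -0.05 to 0.49 in NWD1VitD, with the turned value without NWD1 3 each time. Smad5 in AINlowVitD against AIN ran from -0.41 to 0.26, the latter without AIN 3. Id3 in AINlowVitD against AIN was -0.01 without the filter, and -0.20 to 0.58 when single libraries were left out, with -0.09, -0.20, -0.06 and -0.01 without AIN 2, AIN 3, AINlowVitD 1 and AINlowVitD 3. Bmpr1a in AIN_VdrKO against AINlowVitD was -0.06 with DESeq2, -0.12 with the 2 groups alone, -0.22 with the length trend removed, and -0.10 to 0.18 when single libraries were left out, with -0.02, -0.01 and -0.10 without AINlowVitD 2, AIN_VdrKO 2 and AIN_VdrKO 3.

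With the replicate number as a block, the counts of members called were 5, 4, 5, 3 and 1 in the comparisons across sets, as without it, and 0 in the others. Same-numbered libraries of different groups correlated at -0.302 to 0.489, with 19 pairs over 0.1, so the numbers do not pair the libraries.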
